A study of Homo sapiens with 6 samples.

Results

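The genes described here encode the proteins of the cytosolic ribosome. They were chosen by symbol alone (RPL or RPS followed by digits and at most a short suffix, plus RPLP0, RPLP1, RPLP2 and RPSA, without the RPS6K kinases), which took 84 of 19942 gene symbols. Of these, 81 reached 1 FPKM (a level scaled to transcript length and to the library) in at least 1 library, 49 of the large subunit and 32 of the small one. RPL10L and RPL39L were listed at 0 in all 6 libraries and RPL3L stayed under 1 FPKM, so these 3 paralogues are left out of the counts below.

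Messenger RNA was sequenced in the established human colorectal carcinoma line HCT116, either parental (wild-type) or resistant to 5-fluorouracil, a pyrimidine analogue used against this cancer. Cells of each kind were untransfected, transfected with a control siRNA, or transfected with EHMT2 siRNA, which targets the message of a histone methyltransferase. The 6 groups hold 1 library each, so a difference between 2 libraries has no replicate check and no p-value. The sources used here do not give how the resistant cells were derived, whether they are a clone, what drug they were kept in or the siRNA sequences.

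A ribosome has a small subunit, which holds the messenger RNA and decodes it, and a large subunit, which joins amino acids and sends the chain out through a tunnel. The proteins are needed in matched amounts, and their messages are among the most abundant in dividing cells. Most vertebrate ribosomal protein messages start with a C followed by a run of pyrimidines, the terminal oligopyrimidine or TOP tract, through which mTOR signalling and the binding protein LARP1 control their translation and stability. MYC is a transcription factor known to drive many of these genes. A few members have paralogues, such as RPL22L1 beside RPL22, whose genes are separate and often regulated on their own.

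The start windows below are shown because RPL26L1, RPL36AL, RPS26 and RPS27L, which departed from the common pattern described below, have no tract at the start. RPL7L1, also outside it, has none either, and RPL37 had no RefSeq start. Most members without a tract followed the pattern and are not shown. Of 19 such members, 15 were lower in resistant cells untransfected and 17 were higher with control siRNA. Each is 30 bases, 15 before the annotated RefSeq start (GRCh38.p14) and 15 from it on, 5′ to 3′ on the gene's own strand. Capitals mark the tract, defined here as a C at the start followed by at least 4 bases that are C or T, read on the sense strand only. RPS3, RPL14 and RPS9 were among the members with the lowest levels under EHMT2 siRNA relative to control siRNA. The others set RPL22, RPL26, RPL36A and RPS27 beside their paralogues and end with RPS26, another member outside the common pattern.
RPS3 (chr11:75399503-75399532, plus strand): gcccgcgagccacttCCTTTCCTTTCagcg
RPL14 (chr3:40457324-40457353, plus strand): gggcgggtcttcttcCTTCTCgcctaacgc
RPS9 (chr19:54200843-54200872, plus strand): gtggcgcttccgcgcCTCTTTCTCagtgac
RPL22 (chr1:6199581-6199610, minus strand): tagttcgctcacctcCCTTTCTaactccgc
RPL22L1 (chr3:170870181-170870210, minus strand): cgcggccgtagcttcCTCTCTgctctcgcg
RPL26 (chr17:8383179-8383208, minus strand): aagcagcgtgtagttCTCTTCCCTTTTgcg
RPL26L1, upstream start (chr5:172958714-172958743, plus strand): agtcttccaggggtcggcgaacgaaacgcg
RPL26L1, downstream start (chr5:172958865-172958894, plus strand): ggcggggcggcggccacaaacccgcaggca
RPL36A (chrX:101390996-101391025, plus strand): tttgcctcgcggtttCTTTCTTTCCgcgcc
RPL36AL (chr14:49620612-49620641, minus strand): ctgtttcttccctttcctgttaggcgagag
RPS27 (chr1:153990747-153990776, plus strand): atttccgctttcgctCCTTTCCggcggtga
RPS27L (chr15:63157463-63157492, minus strand): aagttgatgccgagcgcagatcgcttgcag
RPS26 (chr12:56041903-56041932, plus strand): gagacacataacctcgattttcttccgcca

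A RefSeq start was found for 66 of the 81 measured members, and 47 of these (71.2%) carried the tract at a start. Over all 27305 genes with a start in the same reference, 1404 (5.14%) did. The share was 70.7% for the large subunit (29 of 41) and 72.0% for the small subunit (18 of 25). Tracts ran from 5 to 19 bases with a median of 8. When a tract was allowed to begin within 5 bases of the start, 83.3% of the members and 25.2% of all genes held one. Of the 5 measured paralogues, RPL22L1 alone had a tract at the start. A match describes these letters only and does not show that a message is controlled through them.

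Several facts of the libraries bear on every value below. EHMT2 stood at 8.58 FPKM (parental) and 3.804 FPKM (resistant) with its siRNA, against 19.8 and 27.3 FPKM untransfected and 31.7 and 19.5 FPKM with control siRNA, parental before resistant. FPKM summed to between 360695 and 446143 per library over all genes, and read depth is unknown. Of 7 colorectal epithelial markers, 4 reached 1 FPKM (EPCAM, KRT8, KRT18 and CDH1) while VIL1 and CDX1 were listed at 0, and the 7 together summed to 1232 and 1942 FPKM untransfected, 1335 and 1458 with control siRNA, then 2189 and 2124 with EHMT2 siRNA. Of 9 leukocyte, endothelial and fibroblast markers, 7 were listed at 0, and the list summed to 5.79 to 10.2 FPKM. The others were CD68, at 0.372 to 4.99 FPKM, and COL1A1, at 3.35 to 9.79 FPKM. The untransfected resistant library stood apart from the control siRNA resistant one, with 503 genes at least 2-fold higher and 451 at least 2-fold lower with control siRNA, against 111 and 242 for the same step in parental cells. A label of that library also names its cells in another form than those of the transfected resistant libraries. The titles of both untransfected libraries, parental and resistant, differ in this way from those of the transfected ones. What is said below of the untransfected line difference and of its reversal rests on the labels of the 2 untransfected libraries, which were not tested: for EHMT2, too, untransfected parental was closer to control siRNA resistant, and untransfected resistant to control siRNA parental. In bulk RNA of this kind, fewer cells with a message and less message per cell cannot be told apart.

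Ribosomal protein messages made up between 9.05% and 18.5% of all FPKM, and they moved as a block between libraries. Their share was 15.8% in untransfected parental cells and 9.53% in untransfected resistant cells. With control siRNA the order was the other way round, at 12.1% in parental and 18.5% in resistant cells. With EHMT2 siRNA the shares were 9.05% and 11.7%. The median member stood at 709, 395, 480, 701, 350 and 437 FPKM in the same order of libraries. The untransfected parental and control siRNA resistant libraries were thus high in members, and the parental EHMT2 siRNA and untransfected resistant libraries low. The summed epithelial markers were lower in those 2 high libraries (1232 and 1458 FPKM) than in those 2 low ones (2189 and 1942 FPKM). That order did not hold over all 6, as parental control siRNA had 1335 FPKM at a member share of 12.1%. In a limma fit to the 4 siRNA libraries the marker KRT18 rose with EHMT2 siRNA (0.94, adjusted p = 0.0045). The other expressed epithelial markers were not called: KRT8 (0.44, adjusted p = 0.053), CDH1 (0.28, adjusted p = 0.233) and EPCAM (−0.10, adjusted p = 0.507). Of the other list, CD68 was lower with EHMT2 siRNA (−0.87, adjusted p = 0.0211) and COL1A1 higher (0.53, adjusted p = 0.0240). For line in that fit, CD68 was higher in resistant cells (1.26, adjusted p = 0.0256) and COL1A1 lower (−0.78, adjusted p = 0.0277). Their part in the members' levels was not tested.

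**Figure D1:**
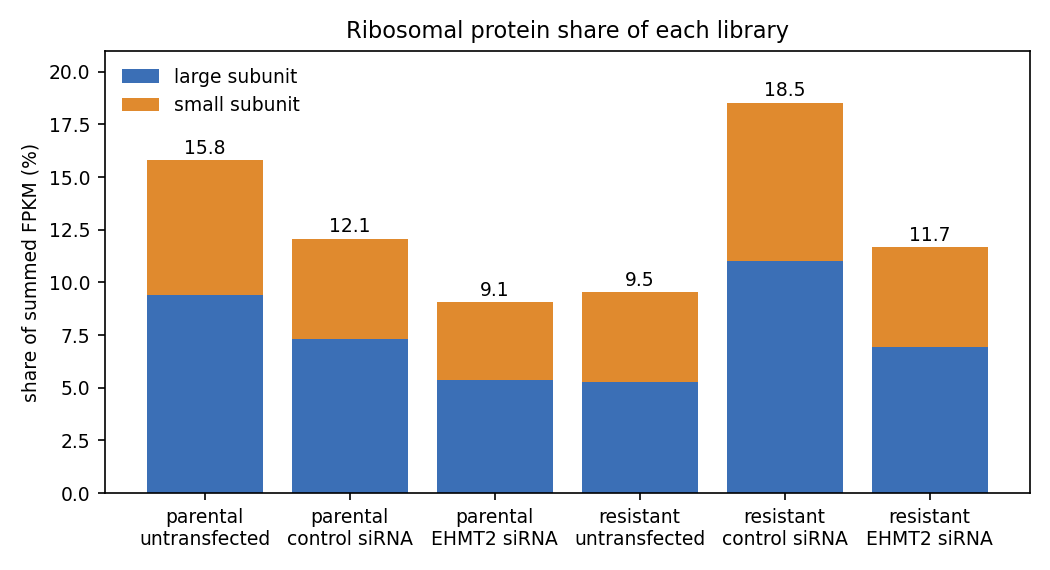
Share of the summed FPKM of each library (percent, vertical axis) taken by the members of the large and small subunit, 1 bar per library and no error bars because each group holds 1 library. The untransfected parental library (15.8%) and the control siRNA resistant library (18.5%) stand above the other 4, which lie between 9.05% and 12.1%.

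The block held together gene by gene. Where values are given in pairs below, the parental library comes before the resistant one. In 73 of the 81 members the untransfected parental and the control siRNA resistant library were the 2 highest. The highest library was control siRNA resistant for 40 members and untransfected parental for 36. The lowest was parental EHMT2 siRNA for 40 members and untransfected resistant for 36. The 4 most abundant members by mean FPKM were RPS2 of the mRNA entry channel, RPLP0 of the stalk that binds translation factors, RPL8 and RPL41. RPS2, for example, was at 2794 FPKM in untransfected parental and 2050 in untransfected resistant cells, 2206 and 2711 under control siRNA, then 1472 and 1967 with EHMT2 siRNA.

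The subunits kept a near constant proportion except in the untransfected resistant library. The summed FPKM of the large subunit over that of the small subunit was 1.24 there and between 1.45 and 1.54 in the other 5 libraries. Within the untransfected resistant library the median large subunit member was at 288 FPKM and the median small subunit member at 430, while in untransfected parental cells these medians were 709 and 740.

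Untransfected resistant cells had lower levels of nearly all members than untransfected parental cells. Ratios here and below are log2 ratios of FPKM with 1 added. The median member ratio, resistant over parental, was −1.06, against 0.07 for all genes, and 77 of 81 members were below 0. The median was −1.12 for the large and −0.88 for the small subunit. At least 2-fold lower were 43 members, 30 of the large and 13 of the small subunit, while 3.92% of all genes were. No member was at least 2-fold higher, against 3.48% of all genes.

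The 4 members with the lowest ratio were all of the large subunit. RPL13 (chr16:89560657-89566828 in GENCODE 29, build GRCh38) had the lowest ratio of all, −2.18, at 1048 FPKM in untransfected parental and 230 in untransfected resistant cells, 652 and 1002 under control siRNA, then 385 and 552 with EHMT2 siRNA. RPL23, at the surface where the subunits meet, was at 335 and 89.2 FPKM untransfected, 231 and 315 with control siRNA, then 133 and 190 with EHMT2 siRNA. RPL26, of the ring around the tunnel exit, and RPL36A had ratios of −1.797 and −1.792. In RPL13 and RPL23 the untransfected resistant level lay below all 5 other libraries.

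With siRNA in the cells, the line difference pointed the other way. With control siRNA the median member ratio of resistant over parental was 0.57, against −0.02 for all genes, and 78 of 81 members were above 0. It was 0.52 in the large and 0.60 in the small subunit. With EHMT2 siRNA the median was 0.33, against −0.05 for all genes, and 77 members were above 0. Few single members reached 2-fold, namely RPS18 and RPS3A with control siRNA (background 1.6% higher) and RPL28 with EHMT2 siRNA (background 1.54% higher). None was 2-fold lower in these pairs, where 0.96% and 1.55% of all genes were.

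RPS18, of the head of the small subunit, had the highest control siRNA ratio. It was at 2143 FPKM in untransfected parental and 825 in untransfected resistant cells, 948 and 2256 under control siRNA, then 870 and 1084 with EHMT2 siRNA. RPS3A, of the mRNA exit side, followed the same order at 1533, 543, 722, 1492, 604 and 840 FPKM. In both genes 2 libraries were high and the other 4 low, and the parental and resistant libraries overlapped.

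**Figure D2:**
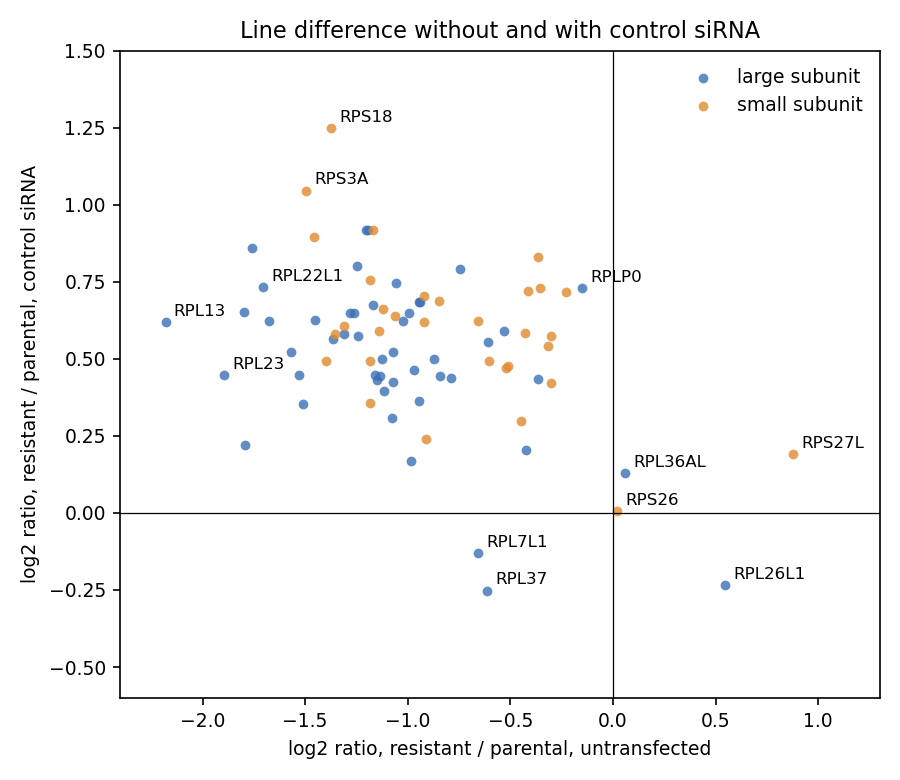
Each point is 1 member, with the log2 ratio of resistant over parental in untransfected cells on the horizontal axis and with control siRNA on the vertical axis, coloured by subunit. Of 81 members, 75 lie in the upper left quadrant, and RPS27L, RPL26L1, RPL36AL and RPS26 lie right of 0.

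A total of 75 of 81 members were below 0 untransfected and above 0 with control siRNA, a pattern met by 25.6% of all genes. For 74 it also held with EHMT2 siRNA (19.1% of all genes). The 6 exceptions to the former were RPL26L1, RPL36AL, RPL37, RPL7L1, RPS26 and RPS27L, of which 4 are paralogues. RPL36AL, RPS26 and RPS27L were above 0 in both of these pairs (22.5% of all genes). RPL36AL and RPS26 were above 0 in all 3 line pairs (14.1% of all genes) and RPL7L1 was below 0 in all 3 (12.4% of all genes). The 3 line pairs share no library.

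The reversal was tested as an interaction in limma, which compares the line difference in the 4 siRNA libraries with that in the untransfected pair. At an adjusted p under 0.05 (Benjamini-Hochberg over 11521 genes), 66 members had a higher line difference with siRNA and 1 a lower one, while 8.15% of all genes were higher and 9.94% lower. The count was 42 higher of 49 in the large and 24 of 32 in the small subunit. RPL23 had an interaction of 2.38 (SE 0.20, adjusted p = 0.00214) and RPL13 one of 2.75 (SE 0.24, adjusted p = 0.00227). RPS6, the small subunit protein phosphorylated by S6 kinases, had 2.16 (SE 0.29, adjusted p = 0.00701). The 1 member in the other direction was RPL26L1 (−0.74, SE 0.19, adjusted p = 0.0419).

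Among the 14 members that did not pass were RPLP0 (0.68, adjusted p = 0.184), RPSA (0.66, adjusted p = 0.165) and RPS2 (0.80, adjusted p = 0.129). Their untransfected line ratios were −0.15, −0.32 and −0.45. RPL36AL (0.11, adjusted p = 0.728) and RPS26 (0.07, adjusted p = 0.833) were close to 0, and RPS27L was at −1.05 (adjusted p = 0.0653). The fit has 1 residual degree of freedom before moderation, rests on the single untransfected pair, and gave 0 calls when all genes were kept (70 members at an unadjusted p under 0.05). Rescaling the libraries to the same sum left 56 higher and 2 lower members, and moved the split over all genes from 939 higher and 1145 lower to 637 and 2132.

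The 6-library fit of line and treatment without interaction called 0 members for line (0 had an unadjusted p under 0.05), and the median line coefficient was −0.02. When limma was restricted to the 4 siRNA libraries, 15 members were higher in resistant cells and 0 lower, against 4.49% and 4.47% of all genes. With the same sum per library the count was 10, with RPL30, RPS4X, RPS6 and RPS15A among the calls lost, and with the same sum over genes that are not members it was 30. When either untransfected library was left out of the 6-library fit, the other was fitted exactly by its own treatment term. Such a fit repeats the 4-library fit and is no further check (median member coefficient 0.47 in each). RPL14 had the largest of the 15 coefficients, at 0.92 (SE 0.12, adjusted p = 0.0131). Others were RPL3 and RPL4, which reach into the core of the large subunit, RPL13A, RPL27A, RPL28, RPL30, RPL37A, RPS4X, RPS6, RPS14, RPS15A, RPS20 and RPS23.

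Control siRNA against no transfection also gave opposite signs in the lines. These pairs share the libraries of the line comparisons and are given side by side with them, not as further evidence. In resistant cells the median member ratio was 1.08 (−0.05 for all genes), and 46 members were at least 2-fold higher (4.31% of all genes) and 0 lower (3.87%). In parental cells it was −0.56 (0.04 for all genes), with RPS18 and RPS3A at least 2-fold lower (2.08%) and 0 higher (0.954%). Signs were opposite in this way in 76 members (22.3% of all genes), the exceptions being RPL22, RPL26L1, RPL7L1, RPS26 and RPS27L. RPL11 and RPS10 were among the highest by the mean of both ratios, with parental ratios of −0.08 and −0.11 and resistant ratios of 1.498 and 1.43. RPL37 and RPS25 had among the lowest, at 0.03 and 0.27 in resistant and −0.33 and −0.74 in parental cells.

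With EHMT2 siRNA, levels were lower than with control siRNA for most members in both lines. The median ratio was −0.67 in resistant cells (0.06 for all genes) and −0.53 in parental cells (0.09 for all genes). In resistant cells 14 members were at least 2-fold lower (4.04% of all genes) and 0 higher (5.22%). In parental cells 6 were at least 2-fold lower (3.51%) and 1, RPS27L, higher (7.48%). Below 0 in both lines were 72 of 81 members, 44 of 49 large and 28 of 32 small, against 36.3% of all genes. These pairs share no library. Against untransfected cells the lines differed. In resistant cells the member share was 11.7% with EHMT2 siRNA and 9.53% untransfected (median member 437 and 395 FPKM). In parental cells it was 9.05% and 15.8% (350 and 709 FPKM). Below, members are said to fall or rise relative to control siRNA.

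In the 6-library limma fit, 0 members passed for EHMT2 siRNA (0 of 11521 genes), 10 members had an unadjusted p under 0.05, and the lowest adjusted p of a member was 0.103. Leaving out either untransfected library repeats the 4-library fit, because the other is then fitted exactly by its own term (median member coefficient −0.62 in each). In the fit to the 4 siRNA libraries, 58 members fell and 2 rose, against 18.7% lower and 23.8% higher over all genes. The large subunit had 41 lower and 1 higher of 49, and the small subunit 17 lower and 1 higher of 32. This fit has 1 residual degree of freedom before moderation, and with the same sum per library 41 members fell and 2 rose. All p-values for EHMT2 siRNA from here on come from the 4-library limma fit. In the 6-library fit RPL26L1, RPS27L and RPL22L1, for example, had adjusted p of 0.135, 0.212 and 0.339.

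Of the structural groups with 4 or more members, that of the mRNA entry channel and decoding centre had the lowest median, −1.26 (resistant) and −0.88 (parental), and 3 of 4 fell. The smaller beak group was lower in parental cells, where RPS10, RPS12 and RPS27A had ratios of −1.10, −0.92 and 0.01. The groups were set with earlier results known, so the ranking depends on the grouping. RPS3 (chr11:75399486-75422280), which lines the entry channel, was the lowest member of all. It was at 1307 FPKM in untransfected parental and 592 in untransfected resistant cells, 849 and 1278 under control siRNA, then 308 and 371 with EHMT2 siRNA. Both EHMT2 siRNA libraries thus lay below the other 4. The coefficient of RPS3 was −1.62 (SE 0.15, adjusted p = 0.00100), and RPS3 was at 29% of its control siRNA level in resistant and 36.3% in parental cells. RPS9, its neighbour at the channel, was at 399 and 175 FPKM untransfected, 302 and 425 with control siRNA, then 144 and 162 with EHMT2 siRNA (−1.23, SE 0.13, adjusted p = 0.00141). RPS23, at the decoding centre, fell by 0.91 on the log2 scale (adjusted p = 0.00394), while RPS2 was at −0.52 (adjusted p = 0.0559).

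Elsewhere on the small subunit, 2 of 3 beak proteins fell. RPS12 was at 1126 and 873 FPKM untransfected, 765 and 1360 with control siRNA, then 405 and 496 with EHMT2 siRNA, below all other libraries (−1.19, SE 0.18, adjusted p = 0.00334). RPS10 also fell (−1.09, adjusted p = 0.00145), and RPS27A, made as a fusion with ubiquitin, was at −0.14 (adjusted p = 0.466). At the mRNA exit site 2 of 5 fell, RPSA (−0.63, adjusted p = 0.0252) and RPS14 (−0.87, adjusted p = 0.00275), and RPS26 was at −0.30 (adjusted p = 0.0842). With the same sum per library 1 of 5 fell, and RPSA did not pass (adjusted p = 0.0522). RPS6 fell by 0.91 (adjusted p = 0.00619). RPS19, a gene mutated in Diamond-Blackfan anaemia, was at 488 and 395 FPKM untransfected, 325 and 485 with control siRNA, then 340 and 385 with EHMT2 siRNA, with a coefficient of −0.13 (adjusted p = 0.493).

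On the large subunit RPL14 (chr3:40457292-40468587) had the lowest ratios. Its levels were 400 and 173 FPKM untransfected, 236 and 448 with control siRNA, then 85.5 and 163 with EHMT2 siRNA, so that both knockdown libraries lay below the other 4. The ratio was −1.46 in each line (−1.46, SE 0.12, adjusted p = 0.000791). All 6 proteins of the ring around the tunnel exit fell, from −0.45 for RPL22 to −0.79 for RPL31, as did all 3 that line the tunnel (RPL4, RPL17 and RPL39) and all 4 of the stalk. RPLP0 fell by 0.65 (adjusted p = 0.0285), RPLP1 by 0.62 (adjusted p = 0.0132) and RPLP2 by 0.45 (adjusted p = 0.0494). With the same sum per library these counts were 3 of 6 for the ring, 2 of 3 for the tunnel and 1 of 4 for the stalk.

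The 5S ribonucleoprotein, whose proteins RPL5 and RPL11 bind MDM2 when ribosome assembly fails, was split in the test. RPL11 was at 1363 and 614 FPKM untransfected, 1287 and 1737 with control siRNA, then 670 and 1152 with EHMT2 siRNA, and fell by 0.77 (SE 0.17, adjusted p = 0.0129). RPL5 was at 1168 and 470 FPKM untransfected, 688 and 1030 with control siRNA, then 610 and 781 with EHMT2 siRNA, with a coefficient of −0.29 (SE 0.15, adjusted p = 0.168). Their difference was not tested. In both genes the EHMT2 siRNA libraries lay above the untransfected resistant one.

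**Figure D3:**
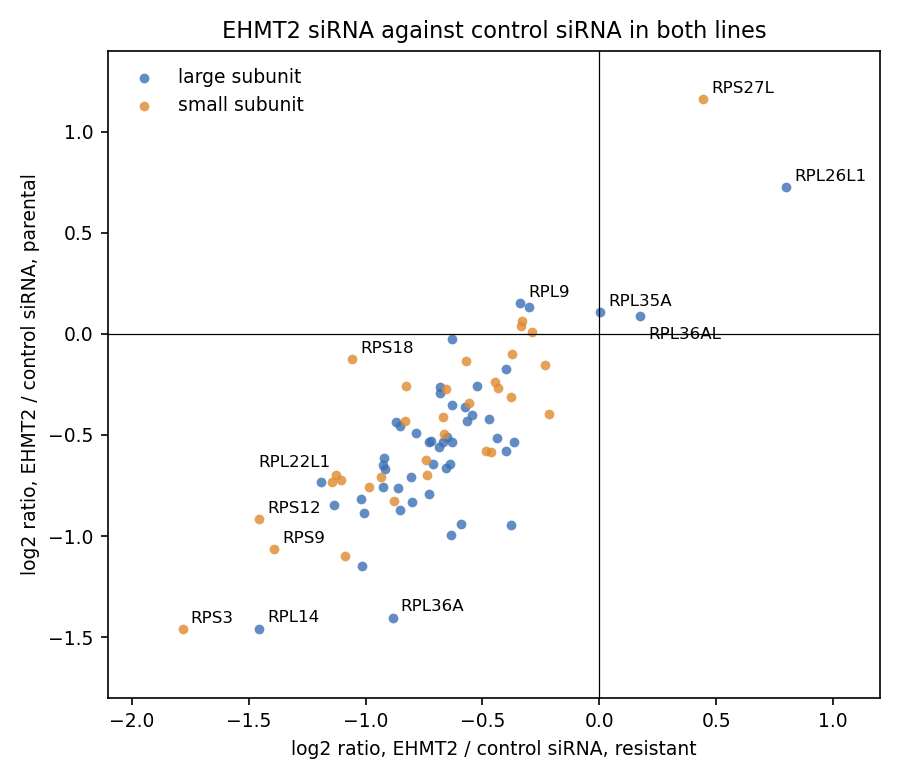
Each point is 1 member, with the log2 ratio of EHMT2 siRNA over control siRNA in resistant cells on the horizontal axis and in parental cells on the vertical axis, coloured by subunit. Of 81 members, 72 lie in the lower left quadrant, and RPS27L, RPL26L1, RPL36AL and RPL35A are the 4 above 0 on both axes.

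The members above 0 in both EHMT2 siRNA pairs were RPL26L1, RPS27L, RPL36AL and RPL35A (46.2% of all genes were), and 3 of these 4 are paralogues. RPL26L1 (chr5:172958729-172969771), a paralogue of RPL26, was at 25.5 and 37.7 FPKM untransfected, 28.6 and 24.1 with control siRNA, then 48.0 and 42.7 with EHMT2 siRNA. The EHMT2 siRNA libraries were its 2 highest, and it rose by 0.76 (SE 0.11, adjusted p = 0.00313). RPL26 itself fell by 0.63 (adjusted p = 0.0199).

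RPS27L (chr15:63125872-63158021), a paralogue of RPS27 known as a p53 target, was at 8.29 and 16.1 FPKM untransfected, 8.66 and 10.03 with control siRNA, then 20.6 and 14.0 with EHMT2 siRNA. It rose by 0.80 (SE 0.18, adjusted p = 0.0142), although the untransfected resistant library lay above the resistant knockdown library, while RPS27 fell by 0.72 (adjusted p = 0.00938). RPL36AL (chr14:49618519-49620685) stayed between 173 and 213 FPKM in all 6 libraries, while RPL36A ran from 160 to 709 FPKM and fell by 1.14 (adjusted p = 0.00274). The coefficient of RPL36AL was 0.13 (SE 0.12, adjusted p = 0.390) and that of RPL35A 0.06 (SE 0.12, adjusted p = 0.740).

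The other 2 measured paralogues were lower with EHMT2 siRNA. RPL22L1 (chr3:170864875-170870483) was at 118 and 35.7 FPKM untransfected, 77.7 and 130 with control siRNA, then 46.4 and 56.3 with EHMT2 siRNA, which is the order of the block, and fell by 0.96 (SE 0.14, adjusted p = 0.00316). Its partner RPL22, at 196 to 328 FPKM, fell by 0.45 (adjusted p = 0.0272), a call lost with the same sum per library (adjusted p = 0.0567). RPL7L1 (chr6:42879618-42889925), which acts in ribosome assembly, was at 46.3 and 28.98 FPKM untransfected, 50.6 and 46.2 with control siRNA, then 32.1 and 29.3 with EHMT2 siRNA, and fell by 0.64 (SE 0.11, adjusted p = 0.00527).

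RPS26 (chr12:56041351-56044697) is no paralogue and yet stayed apart from the block in the line comparisons. It was at 188 and 191 FPKM untransfected, 227 and 228 with control siRNA, then 172 and 196 with EHMT2 siRNA. The lines differed by 0.02 untransfected and 0.00 with control siRNA on the log2 scale. RPL35A (chr3:197949980-197956610) followed the block in the line comparisons but not under EHMT2 siRNA, at 317 and 146 FPKM untransfected, 261 and 344 with control siRNA, then 282 and 345 with EHMT2 siRNA.

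**Figure D4:**
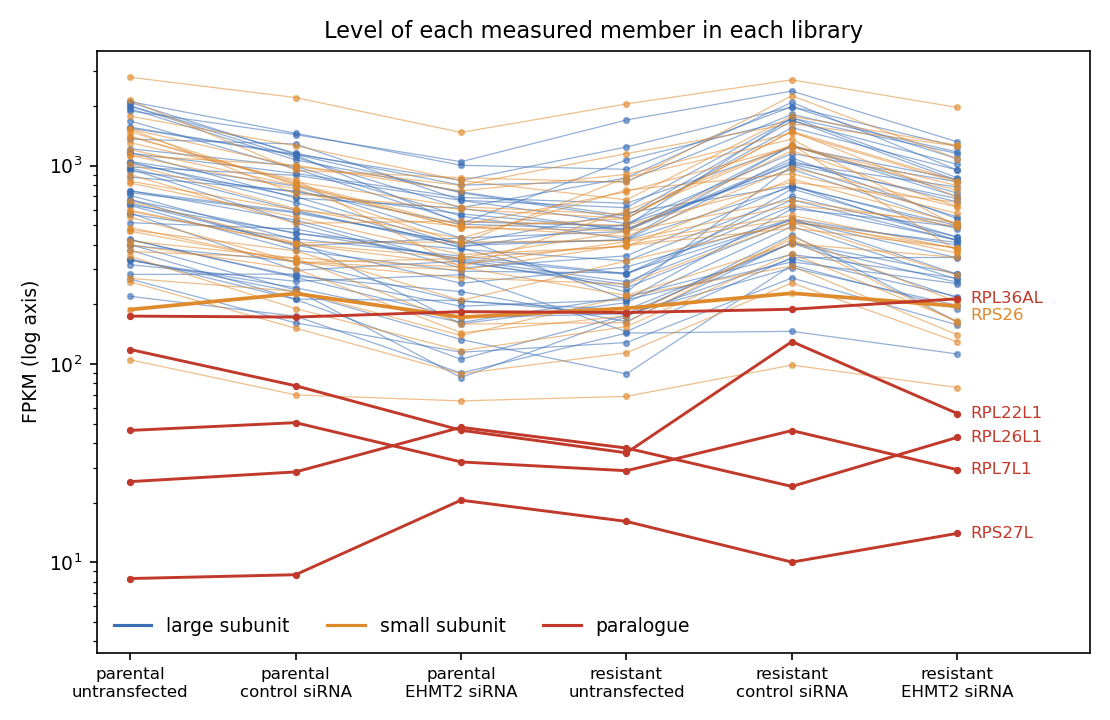
FPKM on a log axis in the 6 libraries for each of the 81 measured members, coloured by subunit, with lines that join the values of 1 gene only to guide the eye; the 5 measured paralogues (red) and RPS26 are drawn thick and named. Most lines are low in untransfected resistant and high in control siRNA resistant cells, while RPL36AL (173 to 213 FPKM) and RPS26 (172 to 228 FPKM) stay nearly level and RPL26L1 and RPS27L have other orders.

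RACK1 and FAU also encode proteins of the ribosome, with symbols that the rule does not take. RACK1, on the head of the small subunit, was at 1056 and 432 FPKM untransfected, 751 and 1175 with control siRNA, then 514 and 699 with EHMT2 siRNA, which is the order of the block, and it fell by 0.65 with EHMT2 siRNA (adjusted p = 0.0144). FAU, made as a fusion with a ubiquitin-like protein, ran from 273 to 333 FPKM and was not called, with a coefficient of 0.04 (adjusted p = 0.824).

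Tract-bearing and tract-free members were compared in each pair. In untransfected cells all 47 members with a tract were lower in resistant cells, and with control siRNA all 47 were higher. Their medians were −1.07 and 0.58. The 19 members with a RefSeq start and no tract had medians of −0.92 and 0.49, and 15 of them were lower untransfected and 17 higher with control siRNA. Some of these 19, such as RPL36AL, held a tract within 5 bases of the start, as 55 of the 66 members did. The 19 also include every measured paralogue but RPL22L1, though most of the 19 are not paralogues. Of these, RPL17, RPL4, RPL19 and RPS28 had untransfected line ratios of −1.28, −1.17, −0.84 and −0.61, and RPS26 one of 0.02. Medians of the tract-free members without the paralogues were not taken. Under EHMT2 siRNA the medians with and without a tract were −0.72 and −0.54 in resistant and −0.53 and −0.39 in parental cells. Genes that are no members but carry the tract were close to the rest, with a median of −0.02 untransfected (658 genes) and 0.09 with control siRNA, against 0.08 and −0.03 for genes without it.

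**Figure D5:**
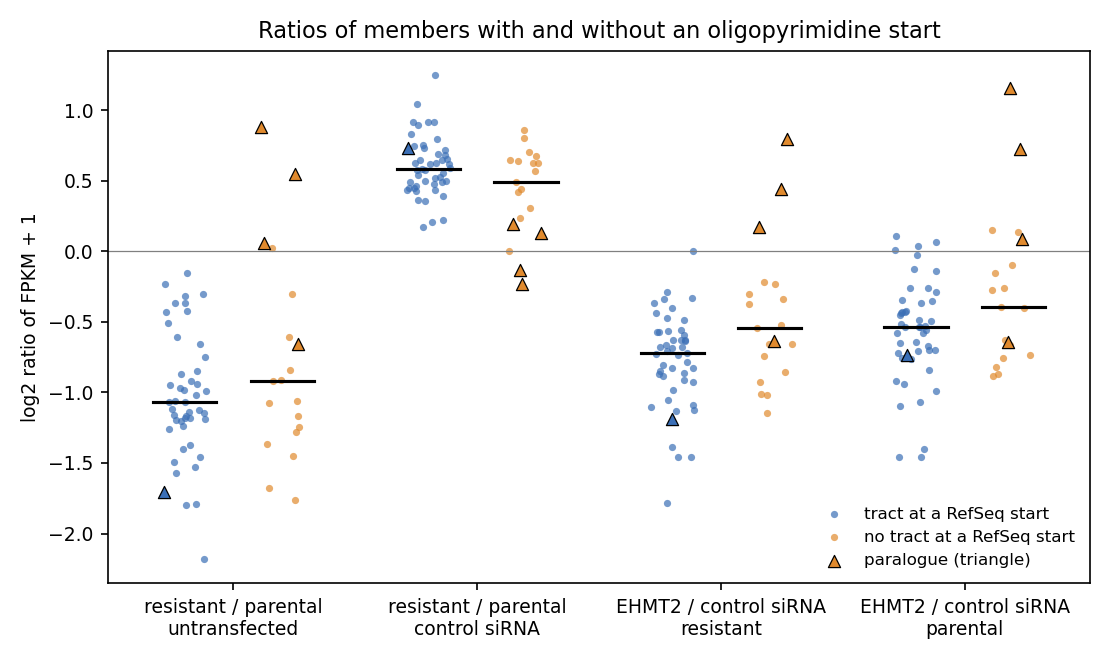
Log2 ratios (vertical axis) of the 66 measured members with a RefSeq start in the untransfected and control siRNA line pairs and both EHMT2 siRNA pairs, split by whether a tract stands at the start, with 1 point per member, triangles for paralogues and a bar at the median. The 47 members with the tract have medians of −1.07 (line, untransfected) and 0.58 (line, control siRNA), and the 19 without it −0.92 and 0.49.

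A list of 17 other known TOP messages, mostly translation factors, followed the members. The list was set with earlier results of these data known. All 17 were lower in resistant cells untransfected (median −0.66) and all 17 higher with control siRNA (median 0.44). That pattern was met by 25.6% of all genes. In the interaction test, where 8.15% of all genes were higher and 9.94% lower, 13 of the 17 were higher and 0 lower. With EHMT2 siRNA their medians were −0.63 in resistant and −0.57 in parental cells, and 11 fell and 0 rose in the 4-library limma fit (9 and 0 with the same sum per library), against 18.7% and 23.8% of all genes. The lowest were EEF1B2 (−2.04, SE 0.16, adjusted p = 0.000791) and EEF1G (−1.81, SE 0.16, adjusted p = 0.000850), both of the complex that recharges elongation factor EEF1A1. The highest were the initiation factors EIF4A2 (−0.07, adjusted p = 0.648) and EIF3F (−0.12, adjusted p = 0.405).

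Of 9 genes that control ribosomal protein messages, 4 fell and 1 rose with EHMT2 siRNA in that fit, against 18.7% and 23.8% of all genes. With the same sum per library 3 fell and 1 rose. MYC was at 143 and 68.9 FPKM untransfected, 64.1 and 92.2 with control siRNA, then 25.1 and 28.6 with EHMT2 siRNA, lowest in both knockdown libraries (−1.48, SE 0.13, adjusted p = 0.000850). EIF4EBP1, a translation repressor under mTOR, fell by 1.14 (adjusted p = 0.00140), and LARP1 fell by 0.44 (adjusted p = 0.0205). RPS6KB1, which encodes an S6 kinase, rose by 0.64 (adjusted p = 0.00717). RPS6KB2, the other S6 kinase gene, fell by 0.49 (adjusted p = 0.0358, and 0.0594 with the same sum per library), and RPTOR of mTOR complex 1 was at 0.30 (adjusted p = 0.118). Whether MYC has a part in the members' levels was not tested.

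The 10 genes listed here as chaperones or assembly factors of ribosomal proteins did not follow the block. Their median was 0.03 in the untransfected line pair and −0.18 with control siRNA, and 0 of 10 passed the interaction test in limma. Over all genes 8.15% were higher and 9.94% lower in that test. With EHMT2 siRNA 2 of 10 fell, near the 18.7% of all genes, namely LTV1 (−0.67, adjusted p = 0.00617) and RPF2 (−0.38, adjusted p = 0.0432). With the same sum per library 1 fell, and RPF2 did not pass (adjusted p = 0.099). GRWD1 was at 0.23 (adjusted p = 0.198) and AAMP at 0.17 (adjusted p = 0.238).

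Ribosomal protein genes have many processed pseudogenes, and the sources used here do not give how reads with several matches were assigned, so single levels are uncertain. Named pseudogenes per member ran from 0 to 91 with a median of 9, the most for RPL23A. The 40 members with 1 to 10 pseudogenes and the 36 with more than 10 had medians of −1.09 and −1.07 in the untransfected line pair, and −0.67 and −0.70 for EHMT2 siRNA in resistant cells. The 5 with none, RPL28 and 4 paralogues, had medians of 0.06 and 0.17 in these pairs. In that group pseudogene number and paralogue status cannot be told apart. Members with a small nucleolar RNA gene inside them (28) and without (53) had medians of −1.03 and −1.06 in the untransfected line pair. RPL17, RPS2 and RPS10 share at least 25% of their exonic bases with another gene on the same strand. Their reads may include those of the neighbour whatever the strand setting. The members lie on 21 chromosomes.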

How the data were processed

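Per the labels' protocols, TruSeq RNA v2 libraries were made from total RNA. The authors deposited FPKM values, 1 table per library. Build GRCh38 and the tools HISAT2 2.2.1, StringTie 2.1.1, cutadapt 4.9 and FastQC 0.12.1 are named in the submitters' processing notes. The sources used here do not give the annotation release, strand setting or read counts. Of 19957 rows, 19942 symbols were kept, and the row of highest mean FPKM was taken for a repeated symbol.

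Pairs were compared as log2 ratios after adding 1 FPKM, over genes at 1 FPKM or more in either library. limma 3.58.1 (R 4.3.3, with trend) was fitted to log2 values of the 11521 genes that reached 1 FPKM in 3 or more libraries, with line and treatment as terms, then with a line by transfection interaction. P-values were adjusted by the Benjamini-Hochberg method over all genes at 0.05. The replication is across lines and treatments, so p-values measure only the spread among these 6 libraries. The code was tested on simulated data. Alternatives were another pseudocount, filter, scaling or threshold, quantile normalisation, no trend, no paralogues, the 4 siRNA libraries alone and leaving out each library. The 4-library fit rescaled or without trend was chosen after seeing the data.

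Members, lists and tests were chosen with earlier results of these data known. Named genes are RPS3, RPL14, RPL5, RPL11, RPS6, RPS19, RPSA, RPLP0, RPLP1, RPLP2, RPS27A, all paralogues, the 4 highest and lowest members by EHMT2, line and control siRNA ratios and the 4 most abundant, the sign exceptions, and the 2 highest and lowest of other lists. Partner genes, members of structural groups, other called members, LARP1, RPS6KB2, KRT18, CD68 and COL1A1 were named after their values were seen. Coordinates are from GENCODE 29 and start windows from RefSeq (GRCh38.p14), which held 67 of 84 members. Some genes that the rules take are not reported here by name, while counts and medians include them.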

Additional observations from a re-analysis of the deposited data

Results flagged for a closer look

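The line difference of the members went in opposite directions in untransfected and control siRNA cells, with a median log2 ratio of resistant over parental of −1.06 and 0.57. The difference between these medians was not itself tested. The interaction was tested gene by gene, and 66 of 81 members had a higher line difference with siRNA in limma.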

How the results depend on the processing

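The labels give no pairing beyond line and treatment, which were terms of the limma fits, and each group holds 1 library. In limma, 0 members were called for EHMT2 siRNA over 6 libraries and 60 over the 4 siRNA libraries (63 without trend, 43 with the same sum per library, 55 with the same sum over other genes). For line these counts were 0, 15, 14, 10 and 30. Leaving out 1 library gave 0 to 60 for EHMT2 siRNA, with 60 without either untransfected library, and 0 to 14 for line, with 14 without the untransfected parental and 13 without the untransfected resistant library. The interaction called 67 members, 38 after quantile normalisation and 0 without a filter, and leaving out a library could not be fitted. In the untransfected line pair 43 members were 2-fold apart, all lower, and with the same sum per library 23 were, 22 lower and 1 higher. At 1.5-fold, counts were 37 for line with control siRNA, 11 for line with EHMT2 siRNA, 53 and 36 for EHMT2 siRNA in resistant and parental cells, and 35 for control siRNA in parental cells. Centring gave 11 for EHMT2 siRNA in parental cells. With the same sum over other genes, line with control siRNA gave 6 and control siRNA in parental cells 1, and 0 with the same sum over all genes. That scaling moved the median of all genes from 0.07 to 0.28 in the untransfected line pair, and the members relative to it from −1.13 to −1.09. The median member ratio of each pair kept its sign under every alternative run. The members' median line coefficient did not, at −0.02 over 6 libraries, 0.06 and 0.08 with the same sum over all or other genes, and 0.47 over the 4 siRNA libraries, and the EHMT2 siRNA coefficient of RPL27 turned from −0.08 to 0.01 with the same sum. The cause of these shifts was not tested. Depth is unknown, and 1 library per group limits every comparison.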
